A study of Homo sapiens with 8 samples.

Results

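Keratins are the intermediate filament proteins of epithelial cells. KRT7, KRT5, KRT8, KRT10, KRT15, KRT17, KRT18, KRT19, KRT23 and KRT81 were taken by gene symbol, as every probe set whose annotation gives 1 of these 10 symbols and no other. The 1043 probe sets annotated with several symbols were not used by gene name, and whether any of them names a keratin is not given here. A probe set is the group of short probes by which an Affymetrix human expression array reads 1 transcript, and a gene can have several. The annotation used gave 11 probe sets for 8 of the 10 genes, out of 22283 probe sets on the array and 11963 gene symbols, and KRT17 and KRT81 were not analysed here. KRT10 had 3 probe sets, KRT7 had 2 and the other 6 genes had 1 each.

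The RNA came from 1 cultured line of human lung adenocarcinoma, a non-small cell lung cancer, whose name the labels leave out. Cells received control medium (given as DMSO/control in the design text), 1 µM rosiglitazone, 10 µM carboplatin, or the drugs together, in each case for 24 h. The labels give the combination no doses of its own. Rosiglitazone is a ligand of the nuclear receptor PPARγ, and carboplatin is a platinum drug that crosslinks DNA. Each of the 4 groups had 2 arrays, and the labels do not say whether these were separate cultures, so p-values measure only the spread between arrays, which may be technical. The series title concerns synergy between the 2 classes of drug, and the comparisons below ask how keratin transcripts differed between the 4 treatments.

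Keratins form filaments only as pairs of a type I and a type II protein. KRT8 with KRT18 is the primary pair of simple, single-layered epithelium, to which KRT7 (type II) and KRT19 (type I) are added in ducts, airways and many adenocarcinomas. KRT5, KRT15 and KRT17 occur in basal cells of stratified epithelium, KRT10 in the suprabasal epidermis, and KRT81 in hair. KRT23 is a less studied type I keratin of epithelial tissues. KRT7 is a routine stain for lung adenocarcinoma, and KRT5 for squamous tumours. In the RefSeq gene order, the type II genes KRT5, KRT7 and KRT8 lie on chromosome 12 and the type I genes KRT10, KRT15, KRT19 and KRT23 on chromosome 17. KRT18 is the exception, a type I gene placed beside KRT8 on chromosome 12, and KRT15 and KRT19 are direct neighbours on chromosome 17.

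Values are given first as the deposited signal, a linear brightness. Differences are in log2(signal + 16) after quantile normalization, which gives all arrays the same distribution, and 1 log2 unit is a doubling. Their standard errors (SE) and adjusted p-values are from a limma model over all 8 arrays, with Benjamini-Hochberg adjustment over 13329 probe sets and a threshold of 0.05. Signals of different probe sets depend on their probes, so no keratin's level is set against another's. Median array signals ran from 36.2 to 54.3 and the arrays correlated at 0.964 to 0.984, with pairs inside a group at 0.974 to 0.976. Rosiglitazone 2 (54.3) and combination 2 (52.2) had the highest medians, so deposited signals of bright probe sets tend to be high on those 2 arrays.

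The simple epithelial keratins KRT7, KRT8, KRT18 and KRT19 and all 3 KRT10 probe sets passed the filter on dim probe sets, 7 of the 11. The probe sets of KRT5, KRT15 and KRT23 and a second one of KRT7 were below it. The labelled cell type was checked against marker genes. KRT7, MUC1, SFTPB, SFTPC and FOXA2 were above the filter among 7 lung adenocarcinoma markers with a probe set, while NKX2-1, the defining lung lineage factor, and SFTPD were not. KRT7 is itself under study here, and passing the filter is not a detection call. MUC1, SFTPB and SFTPC had mean log2 values of 5.88 to 6.04 with or without rosiglitazone, near the filter value of 5.38. The immune marker CD3E had similar means of 6.36 with rosiglitazone and 5.87 without. Of 10 simple epithelium markers only CDH1, MUC1 and ELF3 were above it, and EPCAM was below. Of 8 squamous or basal markers S100A2 and TRIM29 were above it, while KRT5, KRT14 and DSG3 were below. Of 8 fibroblast markers COL1A1, DCN and THY1 passed, of 4 mesothelium markers CALB2 and UPK3B, of 7 immune markers CD3E, and of 6 endothelial markers none.

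**Figure D1:**
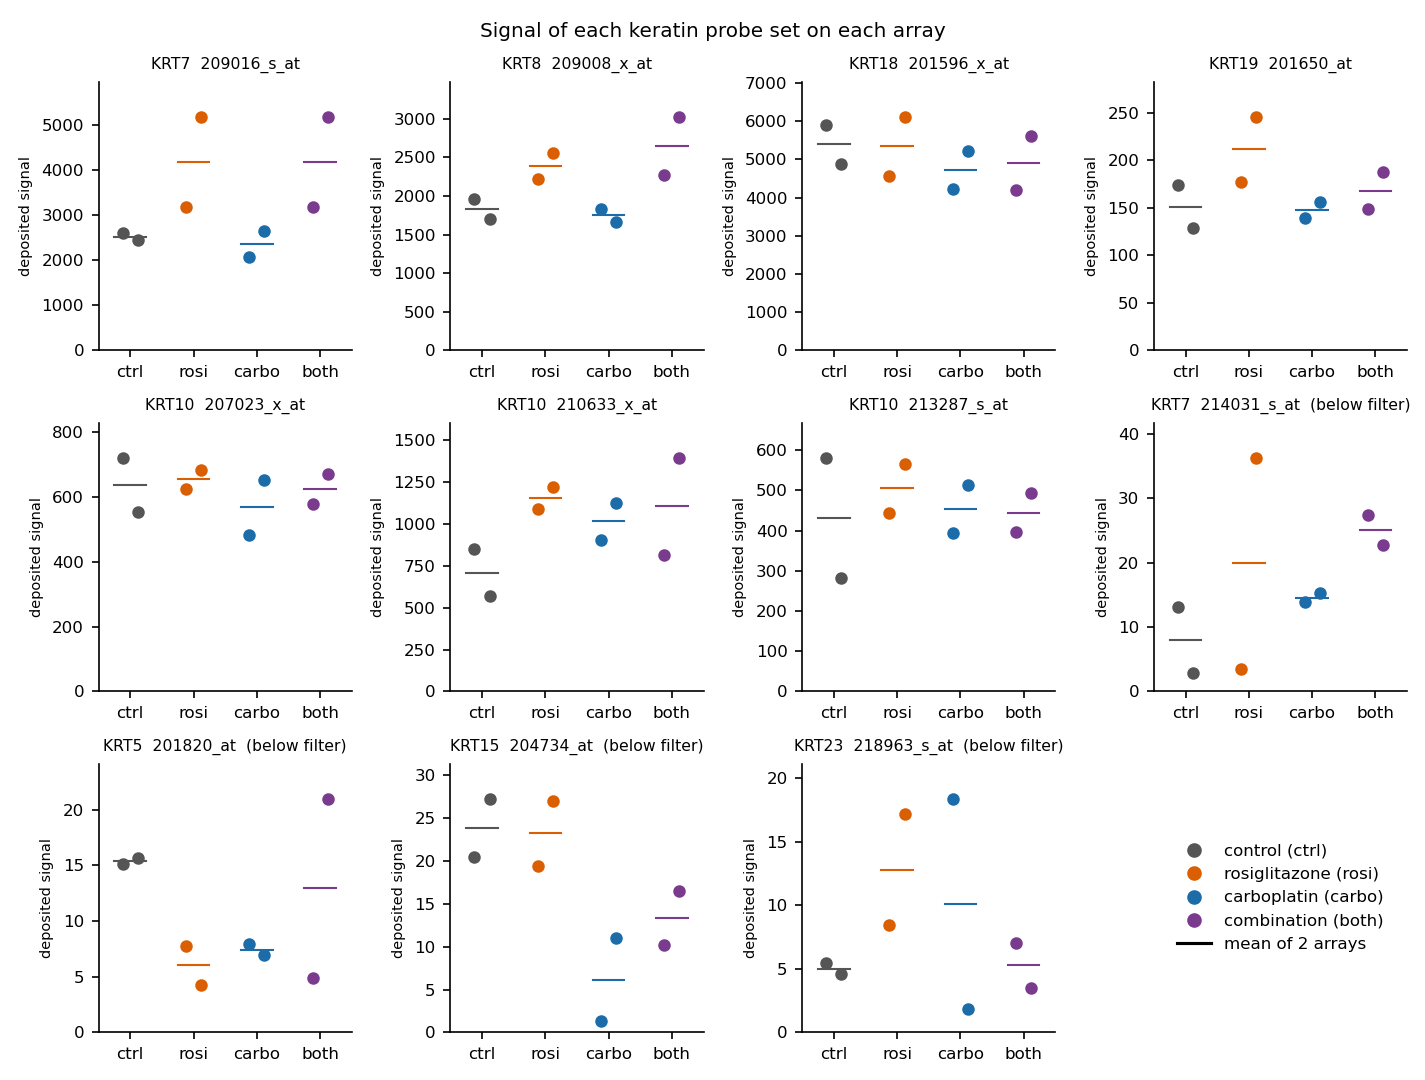
Deposited signal (linear, vertical axis from 0, a scale of its own in each panel) of the 11 keratin probe sets on each array, with replicate 1 left and replicate 2 right in each group and a line at the mean of the 2 arrays. All 4 KRT7 (209016_s_at) signals with rosiglitazone, alone or combined, lie at 3174 or above and all 4 without it at 2639 or below; the 4 panels marked below filter reach no higher than 36.3.

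KRT7, the type II keratin of glandular epithelium, was the 1 keratin that passed the test, and it was higher wherever rosiglitazone was present. Its main probe set (209016_s_at) had signals of 2605 and 2446 in control and 2082 and 2639 with carboplatin. With rosiglitazone the signals were 3185 and 5177, and with the combination 3174 and 5187. Every array with rosiglitazone was therefore brighter for KRT7 than every array without it, before and after normalization. Over the 4 arrays with and the 4 without rosiglitazone the difference was 0.56 ± 0.09 (SE, 1.47-fold, adjusted p = 0.0138 by limma), with a 95% interval of 0.36 to 0.76. In that comparison 0.668% of all tested probe sets were called as higher, and 3.2% had all 4 arrays above the other 4.

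The 2 rosiglitazone contrasts behind that mean were of like size. Against control alone the KRT7 difference was 0.48 ± 0.13 (adjusted p = 0.194), and when rosiglitazone was added to carboplatin it was 0.63 ± 0.13 (adjusted p = 0.123). Each rests on 2 arrays against 2 and neither passed. The combination against control stood at 0.59 ± 0.13 (adjusted p = 0.103). Carboplatin alone left KRT7 at -0.05 ± 0.13 from control, with a 95% interval of -0.33 to 0.24. The interaction, which measures departure from additive effects on the log2 scale, was 0.15 ± 0.18 (adjusted p = 0.93), with a 95% interval of -0.25 to 0.55. By normalized mean the groups ran from the combination (11.97 ± 0.14, SD, n = 2) through rosiglitazone (11.87 ± 0.26) and control (11.39 ± 0.14) to carboplatin (11.34 ± 0.02). The combination and rosiglitazone did not differ beyond their spread (0.11 ± 0.13), nor did control and carboplatin.

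The KRT7 difference kept its direction under all 17 alternative settings, from 0.47 to 0.73, but lost the call in 8 of them. The adjusted p was 0.0688 without control 1, 0.0602 without carboplatin 1 and 0.0572 without combination 2, and the 5 other settings that lost it are given with the processing alternatives. Brightness moved with the result, since the 2 brightest arrays both carry rosiglitazone. Among the brighter array of each group the difference was 0.74, and among the dimmer arrays 0.38. With median array signal as a covariate it was 0.50 ± 0.10 (adjusted p = 0.0664). With the deposited scaling the KRT7 difference was 0.73 while the median of all probe sets moved by 0.17, which leaves 0.56 relative to that median.

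**Figure D2:**
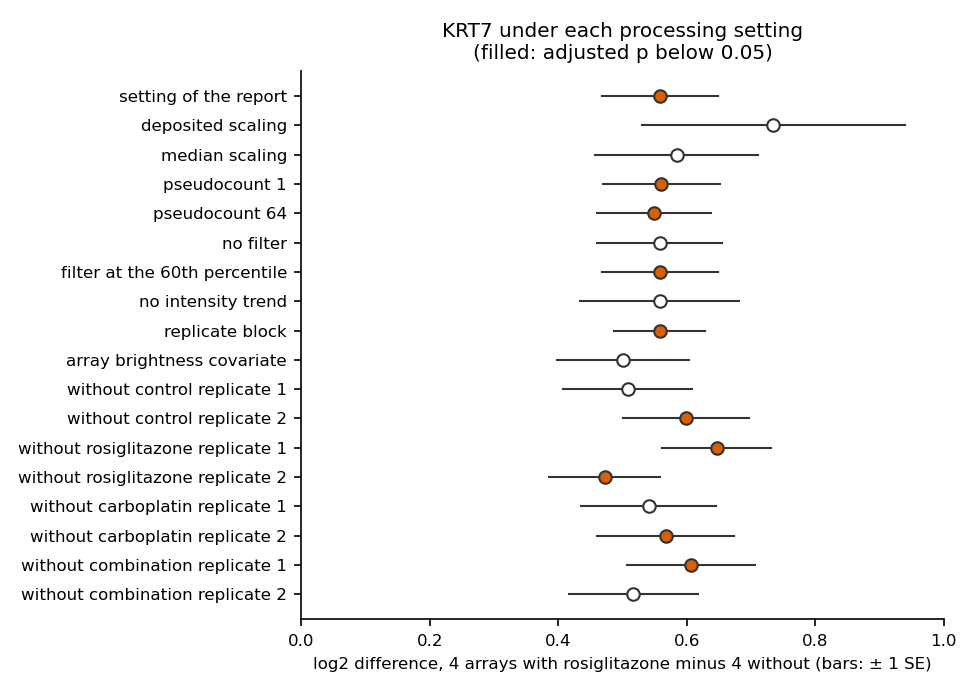
KRT7 (209016_s_at) difference between the 4 arrays with rosiglitazone and the 4 without, on the horizontal axis in log2 units, under the setting of the report (0.56) and 17 alternatives, with bars of ± 1 SE and filled points where the adjusted p was below 0.05. All points lie between 0.47 and 0.73, and 8 of the alternatives are unfilled.

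The second KRT7 probe set (214031_s_at) was dim and was not tested. Its signals were 13.1 and 2.82 in control and 3.43 and 36.3 with rosiglitazone. With carboplatin they were 13.8 and 15.3, and with the combination 27.4 and 22.8. With rosiglitazone alone 1 array was among the dimmest and the other the brightest of all 8, so that group overlapped the rest, while both combination arrays lay above both carboplatin and both control arrays. With no filter its difference for rosiglitazone over all 8 arrays was 0.36 ± 0.28 (limma adjusted p = 0.823).

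KRT8, the type II partner in the simple epithelial pair, was higher on average with rosiglitazone and did not pass. Control arrays read 1962 and 1704 and carboplatin arrays 1836 and 1667. Rosiglitazone arrays read 2218 and 2563, and combination arrays 2267 and 3028. All 4 signals with rosiglitazone exceeded the 4 without, but after normalization carboplatin 1 (11.14) lay above rosiglitazone 2 (10.98), so the arrays overlapped. The difference over 8 arrays was 0.29 ± 0.10 (adjusted p = 0.323, 95% interval 0.07 to 0.51). The combination was 0.42 ± 0.14 above control (adjusted p = 0.417) and 0.40 ± 0.14 above carboplatin (adjusted p = 0.606), and rosiglitazone alone was 0.17 ± 0.14 above control. Carboplatin alone gave 0.01 ± 0.14, which turned negative under median and under deposited scaling. The probe set of the KRT8 pseudogene KRT8P12, a sequence so like KRT8 that its probes may read KRT8 transcript, stood at 0.41 ± 0.25 for rosiglitazone over 8 arrays (adjusted p = 0.657).

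KRT18, the type I partner of KRT8 and a substrate of caspases in apoptosis, lay lower than control in each treated group, and no difference passed. Control arrays read 5905 and 4883 and rosiglitazone arrays 4573 and 6118. Carboplatin arrays read 4215 and 5219, and combination arrays 4185 and 5607. The signals of the 4 groups overlapped as deposited, and after normalization both control arrays (12.51 and 12.46) lay above the other 6, of which the highest was carboplatin 2 (12.36). Such a gap between control and 1 treated group was common, at 42% of all probe sets for rosiglitazone, 35.1% for carboplatin and 36.8% for the combination. The share with control apart from all 6 is not given here. The differences from control were -0.27 ± 0.09 with rosiglitazone (adjusted p = 0.296), -0.19 ± 0.09 with carboplatin (adjusted p = 0.926) and -0.26 ± 0.09 with the combination (adjusted p = 0.416). The 3 share the same control arrays. Over 8 arrays the rosiglitazone difference was -0.17 ± 0.06 (adjusted p = 0.337), and it was 0.01 with the deposited scaling.

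KRT19, a small type I keratin that lacks most of the usual tail domain, differed least between the groups of the simple epithelial set in the main rosiglitazone contrast. Control arrays read 174 and 128 and rosiglitazone arrays 177 and 246. Carboplatin arrays read 140 and 156, and combination arrays 148 and 188. Both rosiglitazone arrays lay above both control arrays, and the combination arrays spanned the carboplatin ones after normalization. Over 8 arrays the difference was 0.11 ± 0.11 (adjusted p = 0.828), with an interval of -0.14 to 0.36. Against control it was 0.19 ± 0.16 with rosiglitazone, 0.04 ± 0.16 with carboplatin and 0.06 ± 0.16 with the combination, and the carboplatin value turned negative under median and under deposited scaling.

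**Figure D3:**
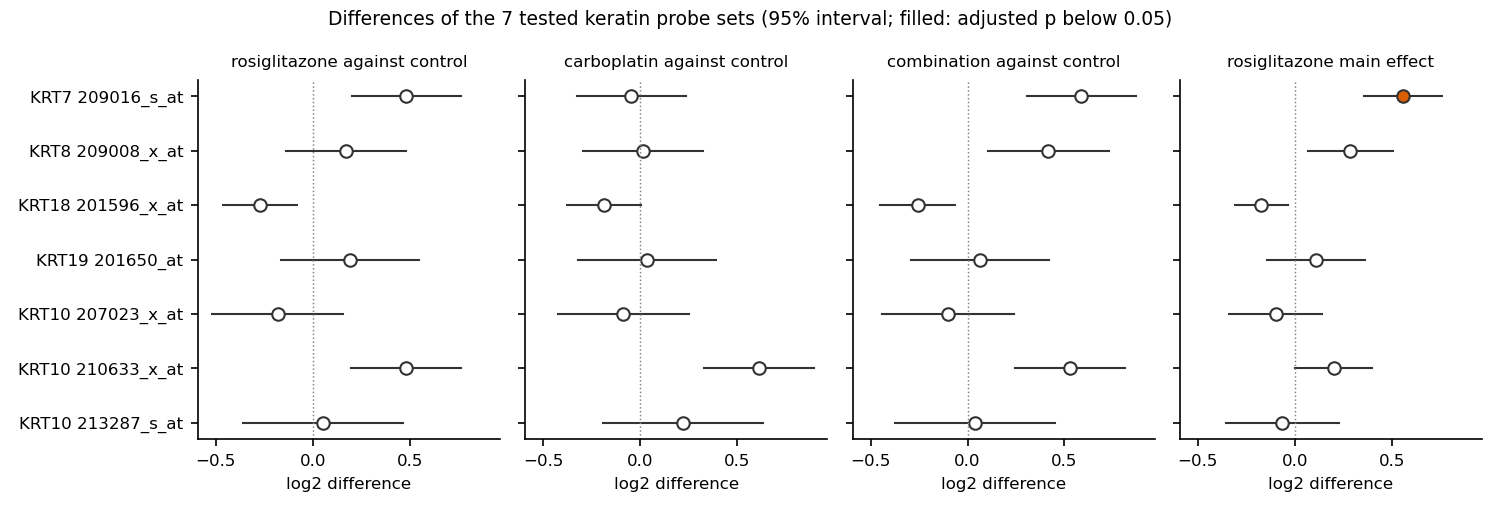
Log2 differences (horizontal axis) of the 7 tested keratin probe sets in 4 comparisons, with 95% intervals; a filled point has an adjusted p below 0.05. Only KRT7 for rosiglitazone over 8 arrays is filled (0.56), and the 3 KRT10 probe sets stand at different values within each panel.

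KRT10, a type I keratin of differentiating epidermis, gave readings that differed between its 3 probe sets. By 210633_x_at control arrays read 847 and 568 and rosiglitazone arrays 1087 and 1217. Carboplatin arrays read 905 and 1126, and combination arrays 817 and 1396. After normalization both control arrays (9.63 and 9.43) lay below all 6 treated arrays, the lowest of which was rosiglitazone 2 (9.88). Control did not overlap with rosiglitazone for 42% of all probe sets, with carboplatin for 35.1% and with the combination for 36.8%. The share with control apart from all 6 is not given here. The differences from control were 0.61 ± 0.13 with carboplatin (adjusted p = 0.56), 0.48 ± 0.13 with rosiglitazone (adjusted p = 0.198) and 0.53 ± 0.13 with the combination (adjusted p = 0.176), and none passed. The carboplatin value was the largest of any keratin probe set tested in that comparison, where 0.015% of all probe sets were called and where the unadjusted p was 0.000597. The interaction was -0.56 ± 0.18 (limma adjusted p = 0.821) and did not pass. For the KRT10 probe sets 207023_x_at and 213287_s_at it was 0.17 ± 0.22 and -0.24 ± 0.27.

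The other 2 KRT10 probe sets did not show that pattern. By 207023_x_at control arrays read 722 and 554 and rosiglitazone arrays 626 and 684. Carboplatin arrays read 484 and 653 and combination arrays 579 and 672, so the groups overlapped as deposited. Its differences from control were -0.18 ± 0.15, -0.09 ± 0.15 and -0.10 ± 0.15 in the order rosiglitazone, carboplatin and combination. By 213287_s_at the 2 control arrays were the extremes of all 8, at 582 and 282, and the other 6 ran from 395 to 566. Its differences were 0.05 ± 0.19, 0.22 ± 0.19 and 0.04 ± 0.19 in the same order, and all 3 were negative without control 2 (-0.25, -0.08 and -0.27). For rosiglitazone over 8 arrays the 3 probe sets stood at 0.20 ± 0.09, -0.10 ± 0.11 and -0.06 ± 0.13, the last 2 positive with the deposited scaling (0.10 and 0.13). The suffix _x_at marks probe sets with probes that can read other transcripts, and it is carried by 2 of the KRT10 probe sets and by those of KRT8 and KRT18, genes with many processed pseudogenes. Which transcripts these 4 probe sets read beside their own was not tested.

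KRT5, KRT15 and KRT23 were near the lower end of the scale, where the added 16 flattens differences. KRT5, the basal type II keratin, read 15.2 and 15.7 on control arrays, 7.76 and 4.26 on rosiglitazone arrays, 7.96 and 6.93 on carboplatin arrays, and 4.93 and 21.0 on combination arrays. The 4 single-drug arrays lay below control and the combination arrays lay on both sides of it. KRT15, a type I keratin of basal cells, read 20.4 and 27.3 on control arrays, 19.4 and 27.0 on rosiglitazone arrays, 1.33 and 11.0 on carboplatin arrays, and 10.2 and 16.5 on combination arrays. With no filter the KRT15 difference between the 4 arrays with carboplatin and the 4 without was -0.61 ± 0.20 (limma adjusted p = 0.999) and did not pass. KRT23 read 5.43 and 4.57 on control arrays, 8.42 and 17.2 on rosiglitazone arrays, 18.4 and 1.80 on carboplatin arrays, and 7.07 and 3.48 on combination arrays. The 2 carboplatin arrays held its highest and its lowest value. The table gives no detection call, so signals of this size cannot be told from background.

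Counted together, 1 of the 7 tested keratin probe sets was called for rosiglitazone over 8 arrays, against 0.885% of all probe sets in either direction. None was called in the 7 other comparisons. In the comparison of all 8 arrays 3 of the 7 had an unadjusted p below 0.05, as had 9.96% of all. Of the 7, 3 had an unadjusted p below 0.05 with rosiglitazone against control (10.4% of all), 1 with carboplatin (5.18%) and 4 with the combination (8.43%). In the same order 0.36%, 0.015% and 0.225% of all probe sets passed the adjusted threshold. For the combination that share was 0.158% against carboplatin and 0.0225% against rosiglitazone, and for carboplatin over 8 arrays it was 0.03%. For the interaction it was 0% by limma, with 5.96% of all probe sets (795) and 1 of the 7 keratin probe sets, of KRT10, at an unadjusted p below 0.05. The arrays of the 2 groups did not overlap for 6 of the 7 with rosiglitazone, 3 with carboplatin and 4 with the combination, where the shares over all probe sets were 42%, 35.1% and 36.8%. The median keratin difference was 0.17 with rosiglitazone, 0.01 with carboplatin and 0.06 with the combination, beside medians of -0.01 over all probe sets in each. These comparisons share their control arrays and 3 of the probe sets read 1 gene.

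Ratios within an array cancel the scaling between arrays and show whether KRT7 moved unequally from the other keratins. They were computed from the deposited signals and were chosen after the values had been seen. Against KRT18 the log2 ratio, centred on the control mean, was 0.57 and 0.85 with rosiglitazone and 0.69 and 0.98 with the combination. It was -0.09 and 0.09 in control and 0.07 and 0.11 with carboplatin. The mean difference was 0.73, higher in 4 of 4 arrays with rosiglitazone than in any without (exact permutation test, two-sided, p = 0.0286, the smallest that 70 arrangements allow; 0.0857 after adjustment over 6 ratios). Against KRT10 207023_x_at the difference was 0.64 with the same exact permutation p and the same adjusted value. Against KRT19 it was 0.41 (exact permutation p = 0.0571), against KRT10 213287_s_at 0.60 (0.0857), against KRT8 0.26 (0.171) and against KRT10 210633_x_at 0.33 (0.257). None of the 6 passed after adjustment, and the KRT7 signal is the numerator of all of them. Across the 8 arrays, as a description that includes the treatment difference, normalized KRT7 correlated at 0.59 with KRT8, 0.34 with KRT19 and -0.56 with KRT18.

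**Figure D4:**
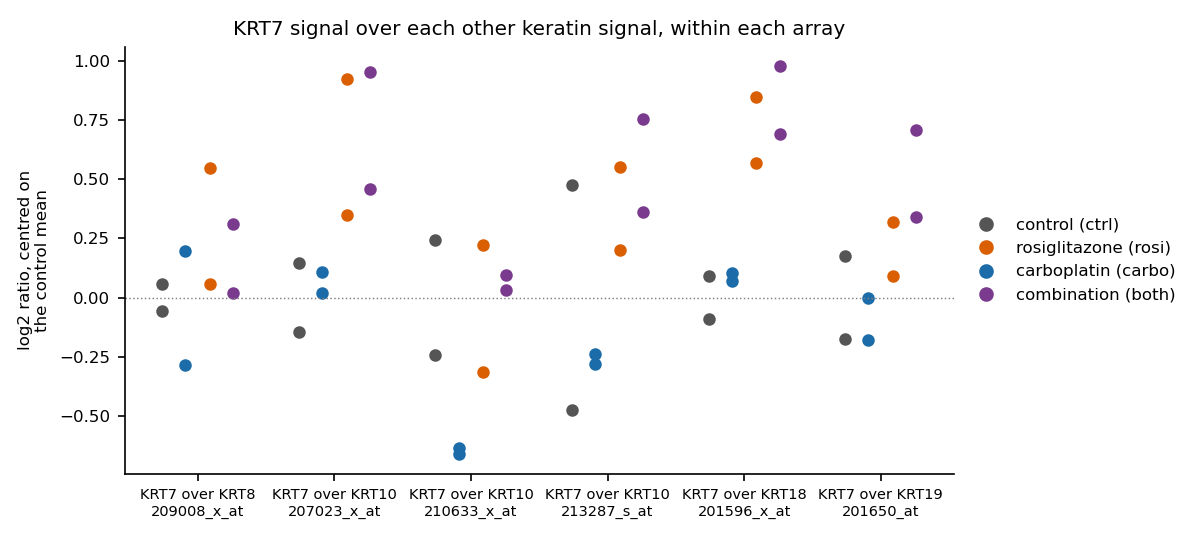
Log2 ratio of the KRT7 signal to each other tested keratin signal within the same array (vertical axis, 0 at the control mean), 2 points per group. For KRT18 the 4 arrays with rosiglitazone lie at 0.57 or above and the 4 without at 0.11 or below; for KRT8 the 2 sets overlap.

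The other keratin genes were mostly dim, as far as a probe set carried their symbol and no other. Of 26 further genes and pseudogenes with 27 probe sets, 5 were above the filter (KRT1, KRT2, KRT32, KRT38 and the pseudogene KRT8P12), and none was called in any of the 8 comparisons. For rosiglitazone over 8 arrays 2 of these 5 were higher, with a median of -0.01. KRT14 and KRT16, keratins of basal and activated keratinocytes, were below the filter with mean log2 values of 4.37 and 4.19.

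Genes that anchor keratin filaments did not pass for rosiglitazone over 8 arrays. Of 9 desmosome and linker genes tested, 6 were higher and none was called, with a median of 0.14. DSP, which encodes desmoplakin, the protein that ties keratin filaments to desmosomes, stood at 0.58 ± 0.14 (adjusted p = 0.117). All 4 rosiglitazone arrays lay above the other 4 for DSP, as for 3.2% of all probe sets. JUP, which encodes plakoglobin of the same junction, stood at -0.34 ± 0.13 (adjusted p = 0.405). Of 4 hemidesmosome genes 3 were higher and none was called, among them the α6β4 integrin genes ITGA6 (0.38 ± 0.15, adjusted p = 0.422) and ITGB4 (0.28 ± 0.12, adjusted p = 0.487). Of 7 other intermediate filament genes 3 were higher and none was called. VIM, the mesenchymal filament gene vimentin, stood at 0.08 ± 0.06 (adjusted p = 0.744) and the neuronal filament gene INA at 0.43 ± 0.12 (adjusted p = 0.167). For INA, too, all 4 rosiglitazone arrays lay above the other 4. In these 3 lists none was called in the 3 contrasts with control either.

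Keratin partners and regulators were given in 3 further lists for the same comparison. Of 8 partner and modifier genes 7 were higher and none was called by its brightest probe set. SFN, a 14-3-3 protein that binds keratins, stood at 0.27 ± 0.06 (adjusted p = 0.0637), and another of its probe sets passed (0.55 ± 0.10, adjusted p = 0.0243), a value singled out after it was seen. The remaining SFN probe set, brighter than the one that passed, did not pass (0.20 ± 0.07, adjusted p = 0.349). Of 13 transcription factors of keratin genes 5 were higher and 3 rose. These were KLF4, a factor of epithelial differentiation (1.29 ± 0.14, adjusted p = 0.00184), the AP-1 subunit JUN (0.90 ± 0.11, adjusted p = 0.00303) and CEBPB, a leucine zipper factor (0.47 ± 0.08, adjusted p = 0.0173). Of all tested probe sets 0.668% were called as higher. None of the 13 was called as lower. The AP-2 gene TFAP2A was lower and did not pass (-0.44 ± 0.10, adjusted p = 0.0998), with its second probe set at -0.03 ± 0.12. JUN, by its brightest probe set, kept its call in all 17 alternatives and KLF4 in all 16 in which that probe set was tested. CEBPB lost its call in 8 of 17, with deposited scaling (adjusted p = 0.423), median scaling (0.118) and no intensity trend (0.149), and without control 1 (adjusted p = 0.0744), rosiglitazone 1 (0.0832), carboplatin 1 (0.0617), carboplatin 2 (0.0825) and combination 2 (0.0673). The dimmer KLF4 probe set did not pass (0.71 ± 0.18, adjusted p = 0.14), and neither did 2 of the 4 JUN probe sets. Against control KLF4 (1.27 ± 0.20, adjusted p = 0.0277) and JUN (0.94 ± 0.16, adjusted p = 0.0405) rose with rosiglitazone, and TFAP2A, an AP-2 factor of epithelial genes, fell with the combination by 0.93 ± 0.15 (adjusted p = 0.0342), with its second probe set at 0.06 ± 0.16. TFAP2A lost the call without control 1, control 2, rosiglitazone 1, rosiglitazone 2, combination 1 or combination 2, at adjusted p = 0.15, 0.243, 0.0534, 0.053, 0.153 and 0.122 in that order. It also lost the call with deposited scaling (adjusted p = 1), median scaling (0.161), no filter (0.0976) and no intensity trend (0.137), 10 of 17 alternatives in all.

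Of 7 epidermal differentiation genes 5 were higher and 1 rose. This was CSTB, the protease inhibitor cystatin B, at 0.60 ± 0.07 (adjusted p = 0.00283; 0.0889 with no intensity trend), a gene that many tissues express. SFN, named above, is on this list too. S100A2, a calcium-binding protein of basal cells, stood at 0.39 ± 0.12 (adjusted p = 0.223). The medians of the partner, transcription factor and differentiation lists were 0.13, -0.03 and 0.27, beside -0.01 over all probe sets. Summed deposited signals of some marker lists were also higher with rosiglitazone. For the squamous or basal list they were 268 to 343 in control, 421 to 457 with rosiglitazone, 266 to 353 with carboplatin and 402 to 445 with the combination. For the simple epithelium list they were 534 to 611, 665 to 835, 434 to 543 and 642 to 871 in the same order, so in both lists every array with rosiglitazone lay above every array without it. These sums are not normalized between arrays and include probe sets below the filter. With the deposited scaling the median of all probe sets itself moved by 0.17 for rosiglitazone over 8 arrays. After normalization the arrays overlapped for CDH1, MUC1 and TRIM29, and all 4 with rosiglitazone lay above the other 4 for ELF3 and S100A2. The same held for DCN and THY1 of the fibroblast list and UPK3B of the mesothelium list. For CALB2 of the mesothelium list all 4 lay below, and COL1A1 and the immune marker CD3E overlapped. Of all tested probe sets 3.2% had all 4 arrays above the other 4. The fibroblast sums were 533 to 660, 722 to 901, 538 to 682 and 623 to 793, and the mesothelium sums 90.4 to 110, 115 to 159, 79.9 to 119 and 126 to 142, with overlap between arrays with and without the drug. The immune sums (123 to 138, 151 to 180, 98.6 to 121 and 114 to 215) and the endothelial sums (78.5 to 92.3, 65.0 to 143, 50.6 to 68.4 and 62.9 to 81.1) overlapped as well. No tested gene of these 6 lists was called for rosiglitazone over 8 arrays, and the part of these lists in the KRT7 result was not tested. In the lung adenocarcinoma list, which holds KRT7 itself, 4 of 5 tested genes were higher and only KRT7 was called. FOXA2 of that list was lower, at -0.67 ± 0.15 over 8 arrays (limma adjusted p = 0.0871). With rosiglitazone against control FOXA2 stood at -1.115 ± 0.218 (limma adjusted p = 0.065).

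**Figure D5:**
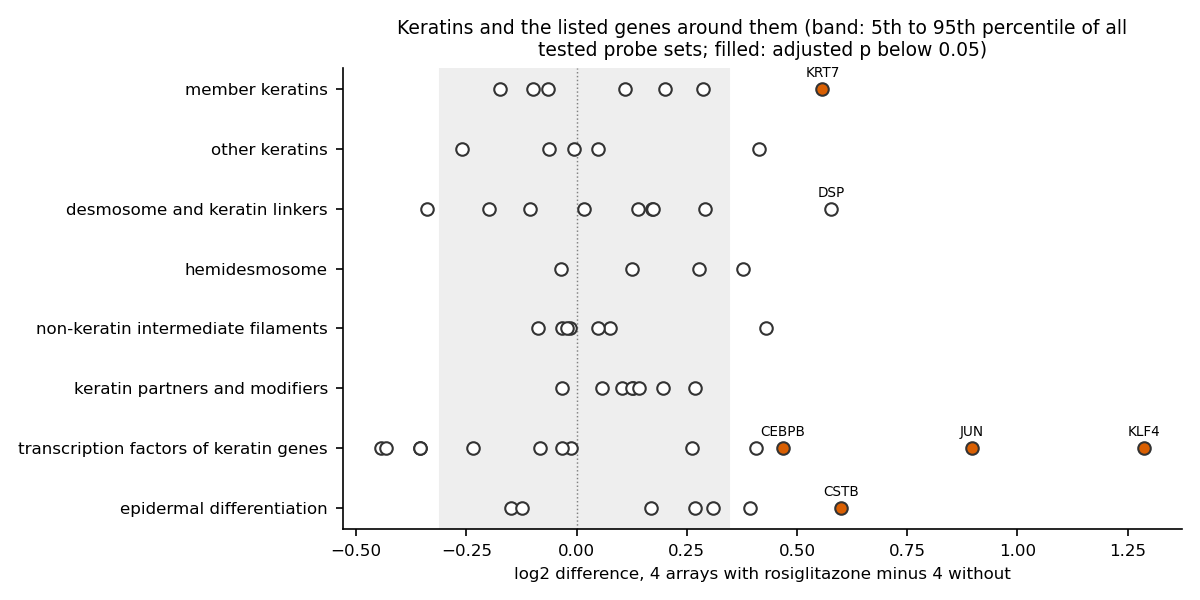
Log2 difference between the 4 arrays with rosiglitazone and the 4 without (horizontal axis) for the 7 keratin probe sets and for the genes of 7 lists, 1 point per probe set or gene, filled where the adjusted p was below 0.05. The grey band holds the middle of all tested probe sets, from the 5th percentile (-0.31) to the 95th (0.35); KRT7, KLF4, JUN, CEBPB and CSTB are filled and lie beyond it.

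The genes most like KRT7 were named by a rule, as the 5 with the highest Pearson correlation over the 8 arrays among 8013 genes, keratins left out. They were IMPA2, an inositol monophosphatase (0.979), TXNIP, a thioredoxin-binding protein (0.969), the adhesion G protein-coupled receptor ADGRG1 (0.964), the death receptor TNFRSF21 (0.963) and the sugar phosphate enzyme PGM1 (0.962). The points share the treatments and array brightness, and a top rank among so many genes carries no p-value. Their rosiglitazone differences over 8 arrays were 0.40 ± 0.09, 0.13 ± 0.15, 0.61 ± 0.09, 1.02 ± 0.10 and 0.45 ± 0.08 in that order, so a close likeness to KRT7 went with differences of several sizes, and the second TXNIP probe set had the other sign (-0.46 ± 0.30).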

How the data were processed

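RNA primed with oligo-dT was made into biotinylated cRNA, per the labels' protocols, and read on 8 arrays. The deposited values are intensity values, 1 linear signal per probe set; which software and scaling the authors used is not given in the sources used here, and the number of arrays limits the precision. Groups came from the sample titles. Signals were taken as log2(signal + 16) and quantile normalized, since array medians spanned 0.43 in log2. Analysis omitted 68 control probe sets and every probe set whose mean log2 fell under the 40th percentile (5.38), which left 13329. One coefficient per group was fitted with limma 3.58.1 (R 4.3.3; lmFit, eBayes with an intensity trend; 4 residual and 7.1 prior degrees of freedom), and 8 contrasts were tested two-sided. "Over 8 arrays" is the mean of the 4 arrays with a drug minus the 4 without. The brightest tested probe set represents a listed gene. All 11 keratin probe sets were found in RefSeq (GRCh38.p14) by Entrez identifier. Every keratin is named, and from each list up to 4 genes of smallest p. The members and lists were chosen with earlier results of these data known; the within-array ratios and the split into brighter and dimmer arrays were added after seeing the data. The limma script was tested on simulated data.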

Additional observations from a re-analysis of the deposited data

How the results depend on the processing

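The alternatives were deposited and median scaling, a pseudocount of 1 or 64, omission of the filter or its 60th percentile, eBayes with no intensity trend, only the groups compared (counts of calls), the replicate block, array brightness as a covariate, and leaving out each array, where the lone array of a group is assumed to vary like the others. The count of called keratin probe sets stayed at 0 in 7 comparisons under every alternative run. For rosiglitazone over 8 arrays the count of 1 became 0 with deposited scaling (KRT7 adjusted p = 0.0655), median scaling (0.0789), no filter (0.0811), no intensity trend (0.16) and the brightness covariate (0.0664), and ranged from 0 to 1 over the arrays left out. The cause was not tested. With the replicate block the KRT7 adjusted p was 0.00502 and the count stayed at 1. The labels do not say that the numbers pair arrays, and deviations of same-numbered arrays correlated at -0.11 to 0.25.

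Of 952 keratin differences under an alternative, 61 changed sign, none of them a called value. With deposited scaling KRT7 stood at -0.0009 for combination against rosiglitazone and -0.0536 for carboplatin over 8 arrays, KRT8 at -0.0631 and KRT19 at -0.0169 for carboplatin against control. KRT18 stood at 0.0464 for combination against carboplatin, -0.1265 for combination against rosiglitazone and 0.0123 for rosiglitazone over 8 arrays. KRT10 207023_x_at stood at 0.0476 for rosiglitazone against control, 0.145 for combination against carboplatin, -0.0673 for combination against rosiglitazone and 0.0965 for rosiglitazone over 8 arrays. KRT10 210633_x_at stood at 0.0803 for combination against carboplatin and -0.105 for combination against rosiglitazone, and KRT10 213287_s_at at 0.134 for rosiglitazone and -0.016 for carboplatin over 8 arrays. With median scaling KRT8 (-0.0679) and KRT19 (-0.0218) turned for carboplatin against control, and KRT10 207023_x_at (0.0651) for combination against carboplatin. With the brightness covariate KRT10 207023_x_at stood at 0.0444 for combination against carboplatin, -0.0197 for combination against rosiglitazone and 0.0129 for rosiglitazone over 8 arrays, and KRT10 213287_s_at at 0.002 for combination against rosiglitazone.

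The other 39 sign changes came from leaving out 1 array, and the ranges follow. KRT7 ran from -0.146 to 0.0488 (carboplatin against control), -0.0609 to 0.124 (carboplatin over 8 arrays), -0.0771 to 0.294 (combination against rosiglitazone) and -0.0323 to 0.34 (interaction). KRT8 ran from -0.207 to 0.242 (carboplatin against control) and KRT18 from -0.0575 to 0.0852 (combination against rosiglitazone). KRT19 ran from -0.0563 to 0.127 (carboplatin against control), -0.113 to 0.0195 (carboplatin over 8 arrays), -0.104 to 0.159 (combination against carboplatin), -0.0679 to 0.195 (combination against control) and -0.263 to 0.0031 (combination against rosiglitazone). KRT10 207023_x_at ran from -0.106 to 0.1001 (carboplatin over 8 arrays), -0.221 to 0.189 (combination against carboplatin), -0.308 to 0.104 (combination against control), -0.124 to 0.286 (combination against rosiglitazone), -0.0369 to 0.372 (interaction) and -0.202 to 0.0035 (rosiglitazone over 8 arrays). KRT10 210633_x_at ran from -0.165 to 0.0036 (combination against carboplatin) and -0.0741 to 0.172 (combination against rosiglitazone). KRT10 213287_s_at ran from -0.0843 to 0.525 (carboplatin against control), -0.0514 to 0.254 (carboplatin over 8 arrays), -0.268 to 0.341 (combination against control), -0.168 to 0.133 (combination against rosiglitazone), -0.544 to 0.0659 (interaction), -0.2499 to 0.36 (rosiglitazone against control) and -0.217 to 0.0877 (rosiglitazone over 8 arrays). Precision is limited by 2 arrays per group and, for dim probe sets, by the absence of detection calls.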
